A study of Mus musculus with 3 samples.

Results

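Claudins and cadherins were followed across cell clusters and genotypes of the mouse pituitary. The members were all genes of the deposited count table whose symbol is Cldn or Cdh followed by a number. The rule found 46 of 55293 gene symbols, 23 claudins and 23 cadherins. Of these, 33 had at least 50 counts in all and are described (15 claudins and 18 cadherins). The 13 others were Cldn13, Cldn15, Cldn16, Cldn17, Cldn18, Cldn20, Cldn22, Cldn24, Cdh3, Cdh9, Cdh16, Cdh17 and Cdh23, and 3 of them (Cldn13, Cldn16 and Cldn17) had no count.

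Claudins are membrane proteins that build the strands of tight junctions and set which ions and solutes pass between cells. Classical cadherins bind their like on neighbouring cells in the presence of calcium and are tied to actin through catenins at adherens junctions. In the pituitary, epithelial stem cells line the cleft, endocrine cells form homotypic networks, and the capillaries are fenestrated. These cell types use different claudins and cadherins.

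Dissociated pituitaries of TpitWT, TpitHT and TpitKO mice had been sorted for live cells and profiled by droplet-based single-cell RNA sequencing from the 3′ end, with 1 library per genotype (called WT, HT and KO below). Tbx19 encodes Tpit, the factor that drives the terminal differentiation of the Pomc-expressing corticotropes and melanotropes. HT is not spelled out in the labels, and age, sex, strain, the nature of the allele and the number of mice per library are not given in the sources used here. The authors had pooled cells into 21 numbered clusters, which were named here with "-like" from marker genes that held no claudin or cadherin. Clusters 11, 12, 13, 16 and 17 did not meet the naming rule and keep their numbers, and cluster 20, with 13 cells, was left out.

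The WT, HT and KO libraries held 11222, 12839 and 13413 cells with 107289047, 152382545 and 133252735 counts. Tbx19 itself had a level of 17.6 (WT), 12.4 (HT) and 0.690 (KO) CPM (counts divided by all counts of the library or cluster, times 1e6). KO had no cell in the corticotrope-like cluster 6 or the melanotrope-like cluster 7. The pituicyte-like cluster 18 had 9 WT, 2 HT and 107 KO cells, and the labels do not say how much neural lobe was kept. Hemoglobin genes summed to 18.2, 177 and 151 CPM. 115 cell barcodes occurred in more than 1 library. Every genotype rests on 1 library, so no test was run, and the 95% intervals in brackets cover counting error only. They treat counts as independent although counts cluster in cells, so they are too narrow.

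Together the members took 247 (WT), 252 (HT) and 330 (KO) CPM. Claudins made up 164, 172 and 234 CPM of this and cadherins 83.0, 80.1 and 96.5. Both sums were highest in KO, and HT lay near WT. Within the claudin sum, Cldn10 alone was at 6.01 (WT), 4.26 (HT) and 39.9 (KO) CPM. In KO 87.8% of its counts came from the pituicyte-like cluster 18. Of the 31 members with enough counts, 19 had a KO over WT ratio above 1. The median log2 ratio over all 21791 genes tested was 0.07, so most genes lay above 1 too. Per kilobase of exon and averaged over the libraries, Cldn9 was at 59.9 CPM, Cldn3 at 31.2, Cldn7 at 11.5, Cldn10 at 6.47, Cdh2 at 4.25 and Cldn5 at 2.56. Libraries made from the 3′ end do not scale with transcript length, so this order is a rough guide.

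The genes split by cell type. With the libraries summed, 20 members (10 claudins and 10 cadherins) reached 20 CPM in at least 1 cluster of 50 or more cells, and 13 stayed under 20 CPM in every such cluster. The stem cell-like cluster 10 held the highest level of 11 of the 33 members (8 claudins and 3 cadherins), and the pituicyte-like cluster 18 that of 5. Another 3 were highest in the fibroblast-like cluster 15, 3 in the melanotrope-like cluster, 3 in the unnamed cluster 17 and 2 in the endothelial-like cluster 9. For 19 of the 20 members at 20 CPM or more, the interval of the highest over the second cluster lay above 1, with Cdh6 as the exception. The highest cluster was the same in all 3 libraries for 14 of these 20. Cdh8 and Cdh10 could not meet this, since their highest clusters had no KO cell. Cdh2, Cdh6 and Cdh19 were highest in the pituicyte-like cluster, where HT had 2 cells and no count of them. Cldn9 was highest in cluster 11 in HT and in cluster 10 in WT and KO.

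**Figure D1:**
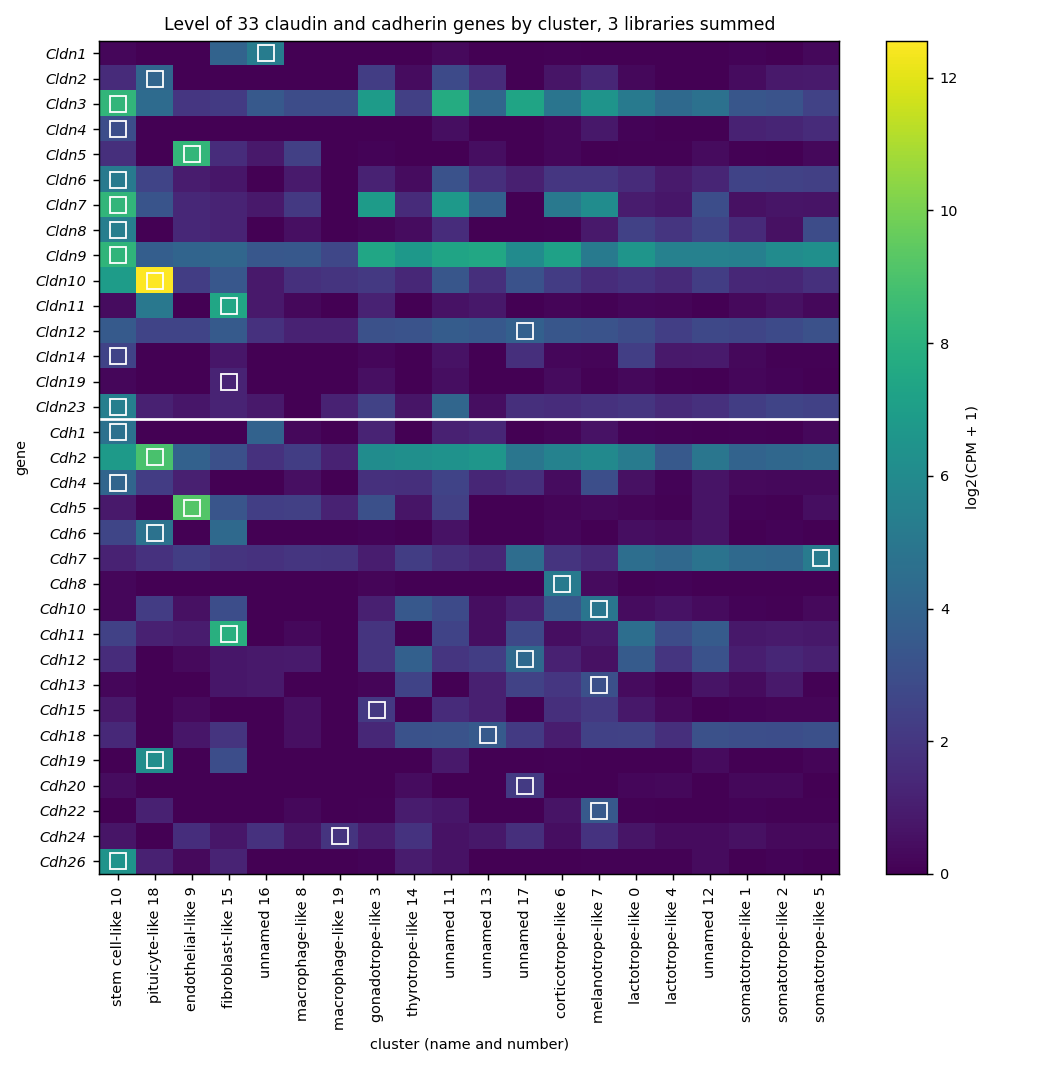
Levels of the 33 described genes (rows, claudins above the white line) in the 20 clusters of 50 or more cells (columns), as log2(CPM + 1) with the 3 libraries summed. White squares mark each gene's highest cluster, 11 of which lie in the stem cell-like column. Cldn10 in the pituicyte-like column, at 6033 CPM, is the brightest cell.

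The stem cell-like cluster carried an epithelial set. Pituitary stem cells are the Sox2- and Sox9-positive progenitors that line the cleft. The cluster held 264 WT, 358 HT and 415 KO cells. Cldn7, a claudin of epithelia, was at 291 (WT), 244 (HT) and 379 (KO) CPM in this cluster. Cldn3, a sealing claudin, was at 303, 289 and 322 CPM. Cldn9, a claudin that seals epithelia against cations in the inner ear, was at 306, 245 and 344 CPM. For these 3 genes KO was the highest library and HT the lowest, all short of 2-fold. They were not confined to this cluster, which held 21.8% of Cldn7, 12.5% of Cldn3 and 5.51% of Cldn9 counts. With the libraries summed, the second highest clusters were gonadotrope-like for Cldn7 (117 CPM), unnamed 11 for Cldn3 (210) and unnamed 13 for Cldn9 (186).

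Other members of this set were less abundant but more selective. Cdh26, a cadherin of epithelia, was at 89.3 (WT), 58.7 (HT) and 109 (KO) CPM, and 94.7% of all Cdh26 counts came from the cluster. Its level there was 63.0 times [17.3 to 521] that of the second cluster. Cdh1, the E-cadherin of epithelial adherens junctions, was at 21.0, 20.4 and 31.2 CPM, with 58.6% of its counts in the cluster. Cdh2, by contrast, reached 20 CPM in 11 clusters.

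Cldn8, a barrier-forming claudin of the kidney tubule, was at 30.4 (WT), 39.6 (HT) and 46.0 (KO) CPM in cluster 10. Cldn23, a claudin of surface epithelia, was at 48.7, 42.5 and 35.3 CPM. Cldn6, a claudin of embryonic epithelia, was at 18.9, 33.3 and 43.5 CPM, the only one of 11 members tested in the cluster past 2-fold between KO and WT (ratio 2.30 [1.5 to 3.62]), and HT lay between them. In this cluster 1.75% of all genes tested were past 2-fold higher and 1.14% lower. Cldn4 and Cdh4 were also highest there, at 6.81 and 16 CPM with the libraries summed. Cldn14 was at 4.75 CPM in the cluster and 4.02 in the lactotrope-like cluster 0, an order that counting error did not separate (ratio 1.18 [0.787 to 1.71]), and cluster 0 held 82.6% of its counts.

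Promoter sequences of this set are shown because its members were high in the same cluster. RefSeq promoters on GRCm38.p6, running from 250 bases before to 50 bases after the RefSeq gene start, were matched for 23 of the 33 described members. For Cdh10, Cdh12 and Cdh18 that start lay over 1000 bases from the start in the deposited table, and these 3 were left out of the counts. For the other 20 it lay within 469 bases. E-box letters CACCTG or CAGGTG (either strand), which repressors of the Snail and Zeb families can bind, and the ETS core CCGGAA or TTCCGG are in capitals. Cldn5, the endothelial claudin, is given for comparison. The windows are chr5:134985964-134986263 (plus strand) for Cldn3, chr5:134946885-134947184 (minus) for Cldn4, chr17:23679115-23679414 (plus) for Cldn6, chr11:69964529-69964828 (plus) for Cldn7 and chr16:18776597-18776896 (plus) for Cldn5.
Cldn3: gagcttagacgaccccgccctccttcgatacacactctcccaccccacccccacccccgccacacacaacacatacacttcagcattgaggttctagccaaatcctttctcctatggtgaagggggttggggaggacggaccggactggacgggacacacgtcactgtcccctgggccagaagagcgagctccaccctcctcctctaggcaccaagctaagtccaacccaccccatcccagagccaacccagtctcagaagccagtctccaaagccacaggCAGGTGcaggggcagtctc
Cldn4: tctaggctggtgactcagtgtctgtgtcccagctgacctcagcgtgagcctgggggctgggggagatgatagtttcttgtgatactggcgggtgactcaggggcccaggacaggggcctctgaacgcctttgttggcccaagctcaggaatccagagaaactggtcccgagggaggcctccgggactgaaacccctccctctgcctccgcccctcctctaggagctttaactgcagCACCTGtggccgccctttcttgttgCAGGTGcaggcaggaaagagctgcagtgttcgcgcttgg
Cldn6: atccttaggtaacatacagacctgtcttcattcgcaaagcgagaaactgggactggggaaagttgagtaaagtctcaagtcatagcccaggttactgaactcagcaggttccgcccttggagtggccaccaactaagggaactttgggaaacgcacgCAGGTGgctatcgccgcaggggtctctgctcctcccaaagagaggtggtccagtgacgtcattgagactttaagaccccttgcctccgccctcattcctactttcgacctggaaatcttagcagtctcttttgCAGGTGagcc
Cldn7: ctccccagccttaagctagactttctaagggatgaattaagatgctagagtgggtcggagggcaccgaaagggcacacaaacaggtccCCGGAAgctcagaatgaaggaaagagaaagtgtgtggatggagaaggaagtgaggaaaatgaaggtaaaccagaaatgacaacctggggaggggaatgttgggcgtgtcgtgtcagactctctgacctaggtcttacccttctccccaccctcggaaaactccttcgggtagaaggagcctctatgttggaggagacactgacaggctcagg
Cldn5: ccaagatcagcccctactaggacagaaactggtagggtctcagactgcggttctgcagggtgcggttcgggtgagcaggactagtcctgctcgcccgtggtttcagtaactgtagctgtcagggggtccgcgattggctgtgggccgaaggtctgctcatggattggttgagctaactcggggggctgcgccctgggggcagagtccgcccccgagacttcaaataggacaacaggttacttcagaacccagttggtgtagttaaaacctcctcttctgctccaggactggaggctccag
The E-box was found in 4 of the 20 member promoters (Cldn3, Cldn4, Cldn6 and Cdh7), against 20.2% of 32851 promoters of the same length. Among the 6 matched members highest in cluster 10 it was in 3, and among the 14 others in 1. The ETS core was in 3 (Cldn7, Cldn12 and Cldn19), against 14.9% of all. The grainyhead-like letters AACCGGTT, AACTGGTT and AACCAGTT were in none, against 0.922% of all. The GC box letters GGGCGG or CCGCCC, not in capitals here, were in 12 of the 20, against 35.7% of all. These are matches of letters and show no binding.

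Neighbouring claudin genes had very different counts over all libraries, here not scaled for length. Cldn6 and Cldn9 lie 137 bases apart on chromosome 17 with their 3′ ends facing each other, and had 1327 and 34104 counts. Cldn4 and Cldn3 lie 39.3 kb apart on chromosome 5 and had 287 and 15398 counts. Whether counting used the strand is not given in the sources used here. Reads in the stretch shared by Cldn3 and the antisense gene Wbscr25 can therefore not be told apart. That stretch runs only from base 134987433 to 134987472, at the 3′ end of Cldn3, and Wbscr25 had 396 counts. The same holds for Cdh5 and its antisense gene Gm29682, and Cdh11 and Cdh12 each overlap several other annotated genes.

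The pituicyte-like cluster had the highest single level of the families. Pituicytes are the glia of the neural lobe. Cldn10, whose isoforms form ion-selective channels in the kidney, was at 3610 CPM in WT (203 counts in 9 cells), 832 in HT (16 counts in 2 cells) and 6355 in KO (4671 counts in 107 cells). With the libraries summed its level was 48.8 times [45.2 to 52.7] that of the stem cell-like cluster. In KO 90.7% of the cells had a Cldn10 count, with a mean of 48.2 counts in each of those, and in WT 55.6% with 40.6.

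Cadherins in the pituicyte-like cluster were Cdh2, Cdh19 and Cdh6. Cdh2, the N-cadherin of neural and endocrine cells, was at 142 (WT), 0 (HT) and 543 (KO) CPM. Cdh19, known from Schwann cell precursors, was at 71.1, 0 and 73.5 CPM, from 4, 0 and 54 counts. The 2 HT cells allow up to 192 CPM for a gene with no count, so HT gives no level here.
Cdh6, a type II cadherin of the developing kidney and brain, was at 17.8, 0 and 27.2 CPM in the pituicyte-like cluster and at 10.4, 25.7 and 16.1 CPM in the fibroblast-like cluster. The order of these clusters was not separated by counting error (ratio 1.42 [0.762 to 2.60]).

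Endothelial-like cells held the highest level of 1 claudin and 1 cadherin. Cldn5, the main claudin of endothelial tight junctions, was at 266 (WT), 293 (HT) and 353 (KO) CPM in cluster 9, and 95.6% of its counts lay there. Cdh5, the VE-cadherin of endothelial adherens junctions, was at 474, 592 and 618 CPM, with 86.6% of its counts. KO was the highest library for both, at ratios over WT of 1.33 [1.13 to 1.56] and 1.30 [1.16 to 1.47], short of 2-fold.

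The pair differed in how counts were spread over cells. Cdh5 had a count in 64.7% of WT, 76.2% of HT and 80.8% of KO cells of the cluster, with 2.64, 3.38 and 3.25 counts in each such cell. Cldn5 had a count in 15.5%, 24.2% and 28.4%, with 6.22, 5.25 and 5.27 counts. Cldn5 was thus read in fewer of the cells but at more counts per positive cell in every library. In the lactotrope-like cluster 0, which should lack both, Cldn5 was seen in 0.0301%, 0 (0 of 4416 cells, upper bound 0.0835%) and 0.0634% of cells and Cdh5 in 0 (upper bound 0.111%), 0.0906% and 0.222%. Mean counts per cell were 3610, 4343 and 4250 in cluster 9 and 9013, 11496 and 9319 in cluster 0. Cdh5 was also read in the gonadotrope-like cluster 3, at 7.75, 5.82 and 8.14 CPM, above the 0.166, 0.159 and 0.489 CPM that free RNA could give there.

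The fibroblast-like cluster was led by Cdh11 and Cldn11. Cdh11, the OB-cadherin of mesenchymal cells, was at 163 (WT), 280 (HT) and 238 (KO) CPM. Cldn11, a claudin of myelin and of Sertoli cells, was at 233, 217 and 107 CPM there, from 67, 110 and 73 counts. KO was the lowest library for Cldn11, with a KO over WT ratio of 0.459 [0.325 to 0.649], but WT had only 57 cells, under the 100 asked for a comparison.
Cldn1, a claudin of stratified epithelia, was highest in the unnamed cluster 16, whose leading genes are immunoglobulin and lymphoid genes, at 13.7, 47.8 and 47.2 CPM from 5, 5 and 36 counts. Cdh1 was second highest in that cluster, at 14.6 CPM.

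Cldn9 was read in every hormone-producing cluster, while the other members differed between them. Cldn9 reached 20 CPM in 14 of the 20 clusters. With the libraries summed, Cldn9 ran from 34.0 CPM in melanotrope-like to 172 in gonadotrope-like cells. Cldn3 was at 117 CPM in gonadotrope-like, 88.8 in melanotrope-like and 33.9 in the lactotrope-like cluster 0, against 4.18 in thyrotrope-like cells. Cdh2 was at 76.1 CPM in thyrotrope-like, 68.9 in gonadotrope-like, 61.2 in melanotrope-like and 46.8 in corticotrope-like cells. It was at 36.6 CPM in the lactotrope-like cluster 0, and at 10.2 to 19.3 in the lactotrope-like cluster 4 and the 3 somatotrope-like clusters.

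Cldn7 and Cdh7 divided these clusters. Cldn7 was at 117 CPM in gonadotrope-like, 67.7 in melanotrope-like and 32.9 in corticotrope-like cells, against 0.50 to 0.908 CPM in the 5 lactotrope-like and somatotrope-like clusters. Cdh7, a type II cadherin, ran the other way, at 17.5 to 36.2 CPM in those 5 clusters and at 0.990, 1.72 and 2.73 CPM in gonadotrope-like, melanotrope-like and corticotrope-like cells. Thyrotrope-like cells were low in both, at 1.93 CPM of Cldn7 and 3.85 of Cdh7. In cluster 0 Cldn7 was at 0.935, 0.749 and 1.16 CPM by library, where free RNA could give up to 0.806, 0.673 and 1.54.

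Corticotrope-like and melanotrope-like cells differed in their type II cadherins. Cdh8 was at 36.2 (WT) and 31.9 (HT) CPM in the corticotrope-like cluster, which held 96.9% of all its counts. In melanotrope-like cells it was at 0.490 and 0.119 CPM, from 3 and 1 counts. Cdh10 was higher in melanotrope-like cells, at 36.5 and 23.1 CPM (WT and HT) against 11 and 7.50 in corticotrope-like cells. It was also read in thyrotrope-like cells, at 9.96 CPM with the libraries summed, and 53.1% of its counts lay in the melanotrope-like cluster. Cdh22, a cadherin of brain, was at 12.8 and 8.59 CPM in melanotrope-like cells, which held 79.8% of its counts.
The lactotrope-like cluster 0 stood apart from the other lactotrope-like cluster by Cdh11 and Cdh12, at 22.4 and 11.4 CPM against 6.56 and 2.79 in cluster 4.

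Likeness of level over the 20 clusters was described by Pearson's r of log2(CPM + 1) among the 20 members at 20 CPM or more. The highest was 0.895 for Cldn5 and Cdh5, then 0.872 for Cdh6 and Cdh19 and 0.868 for Cldn11 and Cdh6. Within the stem cell-like set Cldn6 and Cldn23 reached 0.815 and Cldn3 and Cldn7 0.713. The clusters share libraries and depth, so these are descriptions.

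Over all cells, the question was which members differed between KO and WT. A member counted as past 2-fold when its CPM ratio was at least 2 or at most 0.5 with at least 50 counts in both libraries together. Of the 31 members that passed the count filter, 6 were past 2-fold higher in KO (Cldn1, Cldn5, Cldn10, Cdh1, Cdh5 and Cdh19) and 5 lower (Cldn14, Cdh8, Cdh10, Cdh13 and Cdh22). Among all 21791 genes tested, 5.79% were past 2-fold higher and 2.55% lower. Against both WT and HT, 5 stayed higher and 3 lower (Cdh8, Cdh13 and Cdh22), where 3.22% and 1.44% of all genes did. Against HT alone 6 were higher, with Cdh26 (ratio 2.12) in place of Cdh1, and 3 lower, where 4.92% and 1.86% of all genes were. The median log2 ratio was 0.18 over the members and 0.07 over all genes. In these sums of all cells, fewer cells of a type and less RNA per cell cannot be told apart.

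Cdh8 had 304 counts in WT, 309 in HT and 1 in KO, at 2.83, 2.03 and 0.00750 CPM (ratio of KO over WT 0.00265 [6.68e-05 to 0.0149]). Cdh22 was at 0.876, 0.558 and 0.0675 CPM, a ratio of 0.0771 [0.0342 to 0.153]. Cdh13, the GPI-anchored T-cadherin, was at 0.932, 1.2 and 0.0750 CPM, a ratio of 0.0805 [0.0375 to 0.154]. All 3 were far lower in KO than in either other library. In WT, 95.1% of Cdh8 counts came from the corticotrope-like and 83.0% of Cdh22 counts from the melanotrope-like cluster, neither of which had a KO cell. Outside both clusters Cdh8 was at 0.129 (WT), 0.0149 (HT) and 0.00750 (KO) CPM, a ratio of 0.0583 [0.00136 to 0.394] from 1 KO count. Cdh22 was at 0.107, 0.0670 and 0.0675 CPM there, a ratio of 0.629 [0.226 to 1.72]. For both genes HT lay nearer to KO than to WT there.

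Cdh13 was also lower in KO outside those clusters. There it was at 0.408 (WT), 0.640 (HT) and 0.0750 (KO) CPM, a ratio of 0.184 [0.0818 to 0.376] from 10 KO counts. In thyrotrope-like cells it had 12 counts in 91 WT cells, 3 in 52 HT cells and 0 in 157 KO cells, at 13.5, 5.22 and under 1.82 CPM (3 counts of the KO total).
Cdh10 was at 3.15, 1.94 and 1.13 CPM over all cells, a ratio of 0.360 [0.295 to 0.437]. Outside the corticotrope-like and melanotrope-like clusters the order turned, at 0.290 (WT), 0.223 (HT) and 1.13 (KO) CPM, a ratio of 3.91 [2.58 to 6.13]. In thyrotrope-like cells, its next highest cluster, it was at 6.77, 5.22 and 13.3 CPM.
Cldn14, a claudin that blocks cations in the kidney and inner ear, was at 1.73, 1.59 and 0.810 CPM, a ratio of 0.468 [0.365 to 0.596].

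The genes higher in KO had most of their KO counts in small non-endocrine clusters, but only Cldn10 came under 2-fold when that cluster was left out. Cldn10 was at 6.01 (WT), 4.26 (HT) and 39.9 (KO) CPM, a ratio of 6.64 [6.12 to 7.22]. In KO, 87.8% of its counts came from the pituicyte-like cluster. Without that cluster the values were 4.12, 4.15 and 4.91 CPM and the ratio 1.19 [1.05 to 1.35]. Cdh19 was at 0.0559, 0.0131 and 0.563 CPM, a ratio of 10.1 [4.41 to 28.3], and 72% of its KO counts came from the same cluster. Without it 2, 2 and 21 counts were left, a ratio of 8.50 [2.08 to 74.7].

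Cldn5 was at 1.88 (WT), 2.47 (HT) and 6.51 (KO) CPM, a ratio of 3.46 [2.97 to 4.05]. Cdh5 was at 3.77, 5.34 and 12.8 CPM, a ratio of 3.39 [3.04 to 3.78]. The endothelial-like cluster made up 1.84% of WT, 2.19% of HT and 4.12% of KO cells. Cldn1 was at 0.0839, 0.112 and 0.450 CPM, a ratio of 5.37 [2.65 to 12.3], and Cdh1 at 0.457, 0.538 and 1.01 CPM, a ratio of 2.22 [1.59 to 3.14]. Cdh1 did not pass against HT (ratio 1.88). Without the endothelial-like cluster Cldn5 had 3, 20 and 40 counts left, a ratio of 10.9 [3.46 to 54.8]. Of those 40 KO counts, 19 came from 2 macrophage-like cells, so this ratio leans on very few cells. Without that cluster Cdh5 was at 0.469, 0.602 and 1.90 CPM, a ratio of 4.05 [2.98 to 5.61]. The ratio was 4.84 [1.66 to 19.2] for Cldn1 without cluster 16 and 2.65 [1.54 to 4.78] for Cdh1 without the stem cell-like cluster. Both endothelial genes were thus also higher in KO in the sum of the few counts outside cluster 9, where cell numbers were not held fixed. Cdh5 was also read in the gonadotrope-like cluster 3, which held 449 WT and 1662 KO cells. Its WT and KO levels in cluster 3, given above, lay close together. The ratio of 4.05 therefore does not show a higher level within that cluster, and the share of cell numbers in it was not tested.

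With each cluster held at its WT share of cells, over the 16 clusters of at least 20 cells in both libraries, most of these ratios came closer to 1. Cldn5 went to 1.58, Cdh5 to 1.49 and Cdh1 to 1.57, while Cldn10 turned to 0.905 and Cdh10 to 2.07. Cldn1 stayed past 2-fold at 3.06, and so did Cdh19 at 5.04. The weighted WT level of Cdh19 was 0.0158 CPM, under the 0.0280 CPM that 3 counts give over the whole WT library. Over all cells Cdh19 had 6 WT counts, 4 of them in the pituicyte-like cluster. With the authors' scaled counts, which carry a factor per genotype and cluster, Cldn1 was the 1 member past 2-fold higher. At the WT cluster shares, Cldn14 stayed lower at 0.462, and Cdh12, at 0.518 over all cells, passed 2-fold at 0.456. Cdh8 stayed lower at 0.0843, Cdh13 at 0.249 and Cdh22 at 0.255, from 1, 10 and 9 KO counts over all cells. HT has no part in these ratios, and for Cdh8 and Cdh22 it lay nearer to KO outside the corticotrope-like and melanotrope-like clusters. Cdh6 went from 1.21 to 0.419, past 2-fold lower. The pituicyte-like, corticotrope-like and melanotrope-like clusters have no part in these weighted ratios. Nor has the somatotrope-like cluster 2, with 2081 WT and 17 KO cells, which held 18.5% of WT cells.

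**Figure D2:**
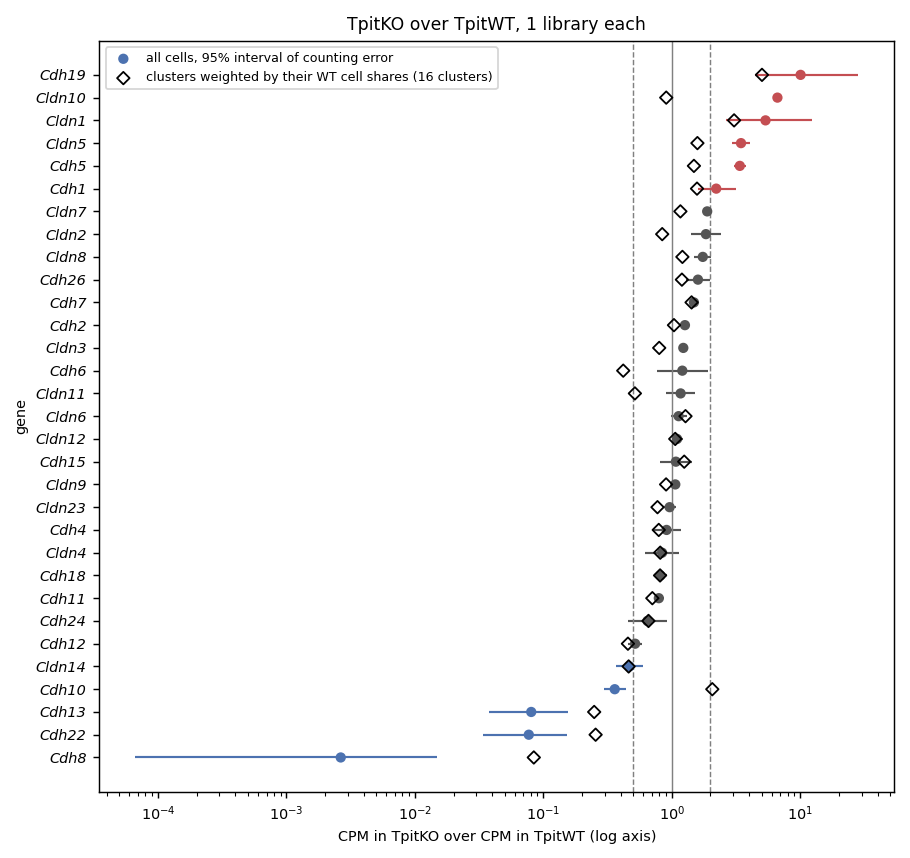
Ratio of CPM in TpitKO over TpitWT for the 31 members with at least 50 counts in both libraries together, on a log axis. Filled points with lines are all cells with 95% counting intervals (red past 2-fold higher, blue past 2-fold lower), and open diamonds are the ratios with 16 clusters held at their WT cell shares. The diamond of Cldn10 lies at 0.905, far left of its point at 6.64.

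Within clusters, KO and WT were compared in the 7 clusters with at least 100 cells in each (0, 1, 3, 4, 8, 9 and 10). Of 61 pairs of member and cluster with enough counts, 8 were past 2-fold higher and 4 lower in KO, where 2.44% and 1.81% of all pairs of gene and cluster were. Against both WT and HT, 5 of 60 stayed higher and 2 lower, where 0.834% and 0.649% of all did. No member had 50 counts in the macrophage-like cluster 8.

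Somatotrope-like cells showed Cdh7 and Cldn8 higher in KO. In cluster 1 Cdh7 was at 14.2 (WT), 13.1 (HT) and 35.0 (KO) CPM, a ratio of 2.46 [2.06 to 2.95] over WT and 2.68 [2.26 to 3.17] over HT. Of 9 members tested there, 2 were higher and 1 lower, with 3.9% and 2.06% of all genes. Cldn8 was at 1.23, 0.814 and 4.62 CPM, from 17, 15 and 45 counts, a ratio of 3.76 [2.11 to 7.01]. WT and HT lay close together for both genes, and KO stood apart.
Over the 3 somatotrope-like clusters together Cdh7 was at 16, 16.7 and 35.7 CPM and Cldn8 at 0.893, 0.510 and 6.02. These were the 2 members of 15 past 2-fold higher over WT in this class (4.73% of all genes, and 2.86% lower with 0 members), and of 14 against both WT and HT (2.4% higher, and 1.91% lower with 0 members). The libraries differ in which of these clusters their cells fill, with cluster 2 holding 2081 WT, 2092 HT and 17 KO cells and cluster 5 holding 28, 24 and 2457. In cluster 5 Cdh7 was at 40.4, 54.7 and 36.0 CPM, from 11, 14 and 1139 counts.
Cldn3 was lower in KO in cluster 1, at 9.25, 11.7 and 4.52 CPM, a ratio of 0.489 [0.339 to 0.693]. Free RNA could give up to 3.22 CPM of Cldn3 in KO there, so most of that KO level is within its reach.

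Lactotrope-like cells showed Cdh12 and Cldn14 lower in KO. In cluster 0 Cdh12, a brain cadherin, was at 15.6 (WT), 11.9 (HT) and 6.19 (KO) CPM, a ratio of 0.396 [0.332 to 0.471]. Cldn14 was at 5.24, 4.29 and 2.31 CPM, a ratio of 0.441 [0.327 to 0.589]. These were 2 of 14 members tested, where 1.92% of all genes were lower and 1.03% higher. HT lay between WT and KO for both, and the ratios over HT were 0.521 and 0.538, short of 2-fold. Cells were split between clusters 0 and 4 as 3321 and 592 in WT, 4416 and 588 in HT, and 3156 and 1463 in KO, and both genes were lower in cluster 4 than in cluster 0. Over both lactotrope-like clusters together, where this split enters, the ratios were 0.339 [0.288 to 0.398] and 0.398 [0.303 to 0.519] over WT and 0.416 and 0.467 over HT. They were the 2 of 14 members lower there, where 2.63% of all genes were lower over WT and 1.18% against both libraries (0.98% and 0.498% higher, with 0 members). Cdh11 in cluster 0 was at 28.9, 21.0 and 18.4 CPM, a ratio of 0.638 [0.572 to 0.712].

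In the lactotrope-like cluster 4 Cldn8 was lower in KO, at 4.03 (WT), 4.21 (HT) and 1.78 (KO) CPM, a ratio of 0.442 [0.266 to 0.739], the opposite of cluster 1. Cdh7 there was at 11.3, 13.3 and 22.7 CPM, a ratio of 2.00 [1.59 to 2.55] over WT and 1.71 over HT. Of 11 members tested in cluster 4, 2 were higher and 1 lower, where 2.47% and 0.752% of all genes were.
Cldn10 in cluster 4 was at 1.17, 0.887 and 2.43 CPM from 9, 8 and 49 counts, where free RNA could give up to 1.53 CPM in KO.

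In gonadotrope-like cells (449 WT, 630 HT and 1662 KO cells) 3 of 14 members were past 2-fold higher in KO and 0 lower, where 2.47% and 2.5% of all genes were. Cdh11 was at 1.59, 1.61 and 3.56 CPM, a ratio of 2.24 [1.08 to 5.37]. Cdh18, a type II cadherin of brain, was at 0.994, 0.402 and 2.34 CPM, a ratio of 2.35 whose interval [0.944 to 7.56] includes 1. Both rest on 8 and 5 WT counts.
Cldn10 was at 1.39, 2.81 and 3.79 CPM and did not pass against HT. Free RNA could give up to 4.41% (WT) and 3.83% (KO) of its all-cell level in gonadotrope-like cells. That all-cell level was 6.01 CPM in WT and 39.9 in KO, so free RNA could reach higher in KO. The abundant members of this cluster kept their levels within 2-fold, with Cldn7 at 115, 127 and 113 CPM and Cldn9 at 171, 179 and 168.
In stem cell-like cells Cldn10 was at 154, 139 and 89.9 CPM, a ratio of 0.586 [0.484 to 0.708], in the opposite direction to its sum over all cells.

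**Figure D3:**
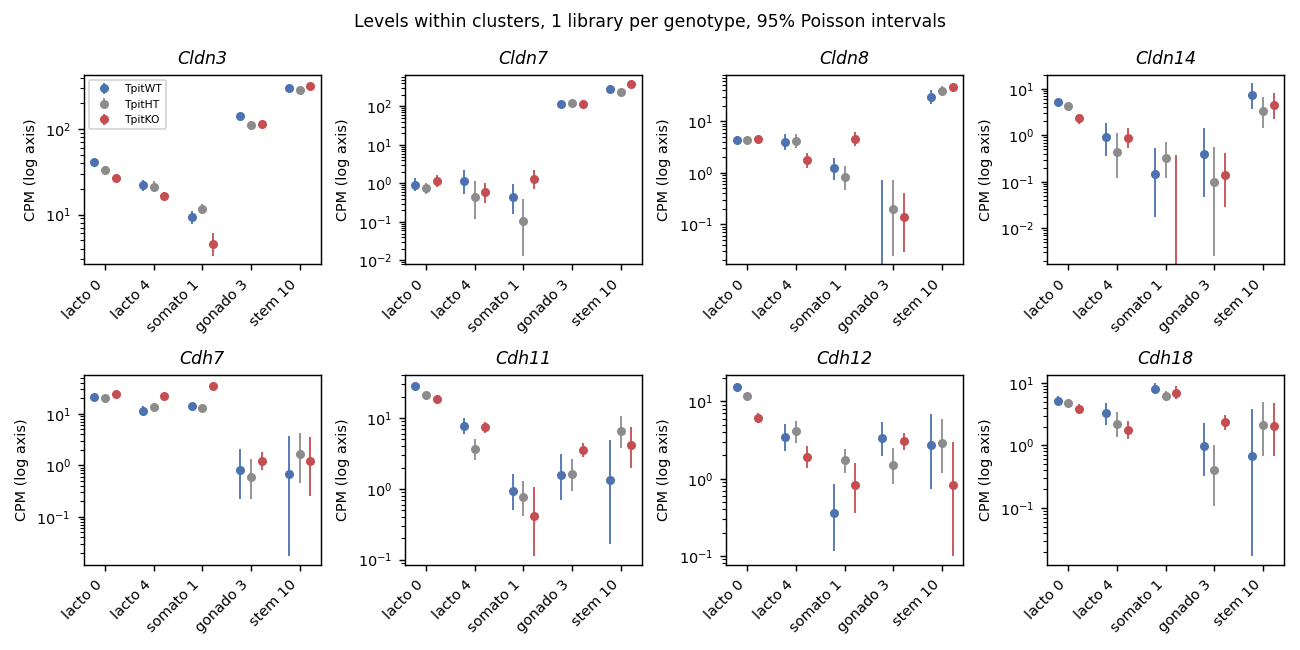
Levels of 8 members in 5 clusters (lactotrope-like 0 and 4, somatotrope-like 1, gonadotrope-like 3 and stem cell-like 10) in each library, as CPM on log axes with 95% Poisson intervals, where a value of 0 has a bar and no point. In somatotrope-like cluster 1 the KO points of Cdh7 and Cldn8 lie above those of WT and HT, and in lactotrope-like cluster 0 the KO points of Cdh12 and Cldn14 lie below.

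The HT and WT libraries were closer to each other. Over all cells 0 of the 29 members tested were past 2-fold in either direction, where 0.675% of genes were higher and 1.11% lower in HT. The median log2 ratio was 0.01 over the members and -0.01 over all genes. Within the 10 clusters with at least 100 cells in each library, 3 pairs of member and cluster were past 2-fold. Cdh13 was higher in HT in somatotrope-like cluster 2, at 0.372 (WT) and 1.19 (HT) CPM (1 of 14 members higher and 0 lower, where 0.852% and 0.905% of all genes were). Cldn12 and Cdh11 were lower in HT in lactotrope-like cluster 4, Cldn12 at 5.73 and 2.77 CPM and Cdh11 at 7.81 and 3.66 (0 of 8 members higher and 2 lower, where 0.599% and 0.543% of all genes were).

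In the corticotrope-like and melanotrope-like clusters, which held only WT and HT cells, no member of the 10 tested in each was past 2-fold. Of all genes 0.977% were higher and 2.53% lower in HT in the corticotrope-like cluster, and 1.04% and 2.04% in the melanotrope-like cluster. In melanotrope-like cells 8 of 10 were lower in HT, with a median log2 ratio of -0.42 against -0.09 over all genes. In corticotrope-like cells 7 of 10 were lower, with a median of -0.38 against -0.10. Both medians over all genes were negative, so most genes tested in each cluster were lower in HT too. Cldn9 in corticotrope-like cells was at 178 (WT) and 121 (HT) CPM, a ratio of 0.676 [0.625 to 0.731]. Cldn3 was at 37.1 and 21.1 CPM, a ratio of 0.570 [0.474 to 0.683]. In melanotrope-like cells Cldn3 was at 108 and 75.0 CPM, while Cldn7 was higher in HT, at 56.7 and 75.7, a ratio of 1.34 [1.17 to 1.53]. Cdh13 was higher in HT in melanotrope-like cells, at 4.90 and 9.07 CPM, and lower in corticotrope-like cells, at 4.01 and 2.19.

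**Figure D4:**
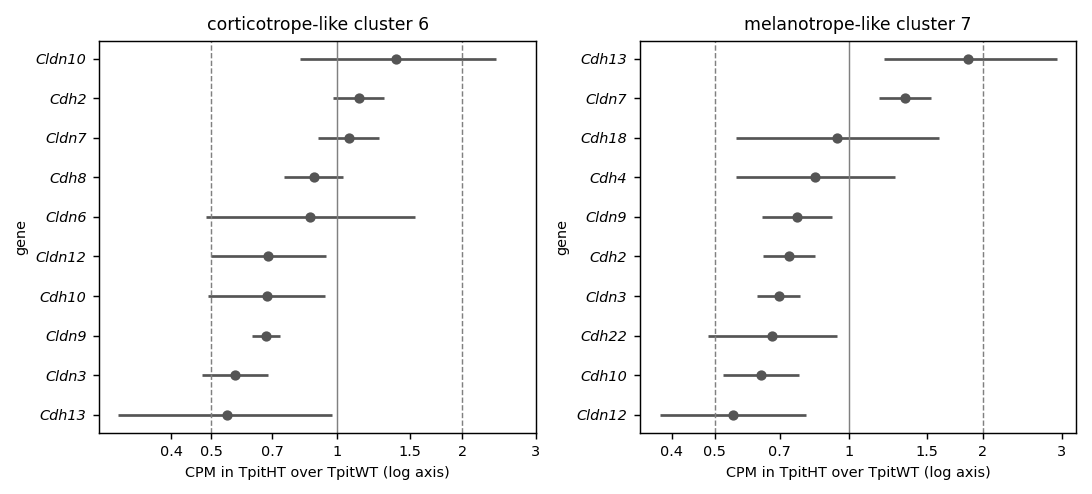
Ratio of CPM in TpitHT over TpitWT in the corticotrope-like and melanotrope-like clusters for the 10 members tested in each, on log axes with 95% counting intervals and dashed lines at 2-fold. All points lie between the dashed lines, with 7 of 10 and 8 of 10 below 1.

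Junction genes outside both families were described from fixed lists. Of 61 genes, 55 were tested in all cells between KO and WT, and 5 were past 2-fold higher and 1 lower, with a median log2 ratio of 0.30 against 0.07 over all genes. Of all genes 5.79% were higher and 2.55% lower, so these counts lie near the background. In the tight junction list 2 of 19 were higher. Marveld3, a tight junction membrane protein, was at 2.22 (WT), 2.78 (HT) and 4.69 (KO) CPM and highest in stem cell-like cells. Esam, an endothelial adhesion molecule, was at 4.32, 6.25 and 9.91 CPM and highest in endothelial-like cells.
None of 12 adherens junction genes (median 0.31) and none of 7 desmosome genes (median -0.09) was past 2-fold in either direction. In the long cadherin list 2 of 7 were higher, where 5.79% of all genes were. Fat4 was at 0.755, 0.735 and 2.36 CPM and Dchs1, its ligand, at 0.503, 0.532 and 1.69, with ratios of 3.13 [2.45 to 4.05] and 3.35 [2.48 to 4.60]. Fat4 was highest in pituicyte-like and Dchs1 in endothelial-like cells. Among 10 transcription factors that act on cadherin or claudin genes (median 0.50), Twist1, a mesenchymal factor, was past 2-fold higher at 0.522, 0.742 and 1.19 CPM. Grhl1, an epithelial factor, was past 2-fold lower at 3.51, 2.78 and 1.58. Every other factor tested had a ratio above 1 and short of 2-fold, with Grhl2 at 1.45. Twist1 was highest in the fibroblast-like cluster, which made up 0.508% of WT and 1.07% of KO cells, and Grhl1 in stem cell-like cells.

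The remaining described members (Cldn2, Cldn4, Cldn12, Cldn19, Cdh4, Cdh15, Cdh20 and Cdh24) stayed at or under 16 CPM in every cluster. Among them are Cldn2, a claudin that forms cation pores, and Cdh15, the M-cadherin of muscle. The KO over WT ratios of 6 lay within 2-fold over all cells, from 0.646 (Cdh24) to 1.84 (Cldn2). Cldn19 and Cdh20 had under 50 counts in KO and WT together and were not compared. Cldn12 was the most even of them, at 1.28 to 13.4 CPM over the 20 clusters.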

How the data were processed

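Live cells of mouse pituitaries were profiled with 10x Genomics 3′ reagents, 1 library per genotype. Tools listed in the submitters' processing notes, without roles, are Seurat 3.1, Cell Ranger 5 and DESeq2, and the builds are mm10 and GRCm38. The authors deposited raw counts per gene, genotype and cluster (55403 gene rows, 61 columns), which were added by symbol, and the same sums multiplied by a factor per column, recorded as signal and used as an alternative only. Quantities recorded as other (cells with a count, exon sizes, and cluster numbers per barcode) were also deposited by the authors. Collapsing to molecules, strand use and doublet removal are not given in the sources used here, and no counts per cell were used, so doublets were not treated and depth could not be equalised between cells.

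CPM is the count divided by all counts of the cluster and library, times 1e6. A cluster was named when at least 3 markers, and at least 0.5 of a list, were at 10 CPM or more and at 5 times the median cluster. No other list could come within 0.25 of that share, and a list gene had to be among the 10 leading genes unless every marker of the list was present. Intervals at 95% are exact Poisson (CPM), Clopper-Pearson (shares) and conditional binomial (ratios). Free RNA was bounded by the lowest ratio of cluster to all-cell CPM over Gh, Prl, Cga and Pomc. Values by library are given for members at 20 CPM or more in a cluster, past 2-fold over all cells, or past 2-fold in a cluster against both other libraries, and at most 4 junction genes are named per list. The members and lists were chosen with earlier results of these data known. The ratio and its call were tested on simulated data. Gene coordinates were identical to GENCODE M21 for all 46 members. Computations used Python 3.11.15, pandas 2.3.3, numpy 2.4.6 and scipy 1.17.1. Alternatives changed the pseudocount, the count filter, the totals, the scaling and the clusters included.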

Additional observations from a re-analysis of the deposited data

Results flagged for a closer look

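Cldn8 went in opposite directions in endocrine clusters. In the somatotrope-like cluster 1 its KO over WT ratio was 3.76, and in the lactotrope-like cluster 4 it was 0.442. The libraries of each genotype were the same in both clusters, and the difference between the clusters was not tested. In the other lactotrope-like cluster, 0, Cldn8 was at 4.44 (WT), 4.27 (HT) and 4.45 (KO) CPM.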

How the results depend on the processing

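No paired analysis was possible because there was 1 library per genotype, and for the same reason no replicate could be left out. Over all cells 6 members were past 2-fold higher and 5 lower in KO. Adding 1 CPM to both values gave 3 and 1, adding 10 CPM gave 1 and 0, and asking for 200 counts gave 3 and 3. With no count filter 8 were lower. With the authors' scaled counts 1 was higher. With clusters at their WT shares 2 were higher (Cldn1 and Cdh10) and 3 lower (Cldn14, Cdh6 and Cdh12). These counts leave out Cdh19 (5.04), Cdh8 (0.0843), Cdh13 (0.249) and Cdh22 (0.255), whose single ratios were past 2-fold at those shares but rested on few counts. Without the corticotrope-like and melanotrope-like clusters 2 were lower. Without clusters 9, 16 and 18, an alternative chosen after seeing the data, 2 were higher. Under the other alternatives the counts stayed within 1.5 times. Within clusters 8 were higher and 4 lower, which went to 4 and 1 with 1 CPM added, to 0 and 0 with 10 CPM added, and to 2 and 2 at 200 counts. For HT over WT the count was 0 in both directions with 1 CPM added and with totals without hormone and mitochondrial genes. At WT cluster shares 7 of the 31 single ratios crossed 1. Of members past 2-fold these were Cldn10 (0.905) and Cdh10 (2.07), and of the others Cdh6 (1.21 to 0.419), Cldn11 (1.17 to 0.516), Cldn2 (1.84 to 0.842), Cldn3 (1.23 to 0.798) and Cldn9 (1.07 to 0.903). Without the cluster that held most of a member's KO counts, chosen after seeing the data, 6 crossed 1: Cldn14 (1.03, without cluster 0), Cdh11 (0.793 to 1.96), Cdh12 (0.518 to 1.10), Cdh6 (1.21 to 0.760), Cdh15 (1.08 to 0.696) and Cldn9 (1.07 to 0.925). By share of cells with a count Cdh4 crossed (0.911 to 1.08). The cluster of highest level was the same for 28 of 33 members with libraries averaged and for 27 with counts per cell. The causes of these changes were not tested. Low counts limit most members: members with under 50 counts in a comparison were not compared.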
